A study of Drosophila melanogaster with 3 samples.

Results

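The peaks described here are the binding sites of the protein encoded by CG13775 that lie between genes and away from promoters in Drosophila melanogaster embryos. Of the 5862 peaks in the authors' optimal list, 756 had their summit in no annotated gene and more than 500 bp from any transcription start site (TSS), which is 12.9% of the list (95% exact interval 12.05% to 13.78%, counting error only). They are called distal intergenic peaks below. The other optimal peaks comprised 3137 within 500 bp of a TSS, 1808 in introns and 161 in exons, both of the last kinds also more than 500 bp from a TSS. Membership depended on position alone and used no measured signal.

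The 3 chromatin immunoprecipitation libraries formed 1 group, CG13775-GFP, with biological replicates numbered 1, 2 and 4. Each came from whole embryos aged 0 to 24 h, males and females together, of a transgenic line that stably expresses CG13775 fused at its C terminus to enhanced green fluorescent protein (eGFP), and the chromatin was recovered with an antibody against GFP. The labels do not state what drives the transgene or whether the native gene was kept, so the tagged protein may have been present besides the native one. A whole-embryo library averages over all tissues and stages, so a site occupied weakly in many cells and a site occupied strongly in few cannot be told apart. No other genotype, stage or treatment was sampled, and the control named in the deposited records was not analysed here. Read counts, and with them the depth of each library, are unknown.

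Intergenic DNA of the fly carries enhancers, silencers and insulators, short elements that transcription factors occupy and that can act on promoters over several kilobases. Genes that pattern the embryo are known for extended regulatory domains in the intergenic sequence around them, whereas housekeeping genes are typically controlled from close to the TSS. RefSeq describes CG13775 only as an uncharacterized protein, so no role of the protein is assumed here.

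The summit base with 50 bp on each side of it is shown for the 5 strongest distal intergenic peaks whose sequence is given, because base composition was the property that most summits had in common. Capitals mark every run of 6 or more A or T. Sequences are from the RefSeq copy of the Release 6 (dm6) assembly, written 5′ to 3′.
Peak near sp3, chr3R:21520329-21520429, plus strand: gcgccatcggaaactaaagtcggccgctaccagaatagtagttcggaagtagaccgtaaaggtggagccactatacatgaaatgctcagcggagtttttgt
Peak near ph-d, chrX:2124079-2124179, plus strand: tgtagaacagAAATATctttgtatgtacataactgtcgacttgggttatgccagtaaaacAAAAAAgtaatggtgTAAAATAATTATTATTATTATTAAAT
Peak near lncRNA:CR45695, chr2L:1638728-1638828, plus strand: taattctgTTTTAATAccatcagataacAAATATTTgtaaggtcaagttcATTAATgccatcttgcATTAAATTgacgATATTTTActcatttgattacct
Peak near CG42680, chr2L:14587232-14587332, plus strand: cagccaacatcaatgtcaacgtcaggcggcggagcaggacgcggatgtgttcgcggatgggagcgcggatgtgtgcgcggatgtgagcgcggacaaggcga
Peak near CG31668, chr2L:2202382-2202482, plus strand: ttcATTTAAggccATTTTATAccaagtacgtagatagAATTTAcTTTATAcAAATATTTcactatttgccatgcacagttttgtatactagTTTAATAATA
The summits near ph-d, lncRNA:CR45695 and CG31668 were A+T-rich, with a G+C content of 24.8%, 26.7% and 25.7% over this window, and held 3, 5 and 6 such runs. The summits near sp3 and CG42680 held none and had a G+C content of 48.5% and 64.4%. Both of the latter values lie above the 90th percentile of the distal peaks (47.0%), so most summits were more A+T-rich than these.

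Across all 756 distal intergenic peaks, the G+C content of this window averaged 33.9% ± 9.56 (SD over peaks), against 45.1% ± 9.39 in windows centred 300 bp to each side. Runs of 6 or more A or T took up 25.3% of the bases at the summit and 12.7% in the flanks. The same windows tiled over all eligible intergenic sequence, that is, all bases that meet the position rule, averaged 40.8% G+C over 376055 windows. Distal intergenic regions that the authors called in the pooled libraries but did not keep in the optimal list averaged 41.0% over 4493 regions. The summits of the distal regions that missed the authors' threshold were thus close to the tiled windows on average. Their flanks were not measured, so whether their composition dips at the summit was not tested. The A+T-rich centre was found at the optimal distal peaks. It was shared with the other classes of optimal peak, since the summits averaged 34.8% G+C within 500 bp of a TSS and 32.7% in introns, with 44.2% in the flanks of both classes. Exonic summits averaged 42.0%. In the replicates' own lists, limited to the 5862 strongest regions each, the distal class had a G+C content of 34.2% ± 0.758 (SD, n = 3), against 35.1% ± 0.577 near a TSS and 33.3% ± 0.457 in introns. The difference of the distal class from the TSS class was -0.907 ± 1.15 percentage points (lower in 3 of 3 replicates) and that from the intron class was 0.85 ± 0.550 points (higher in 3 of 3), each with an exact two-sided sign-flip permutation p of 0.25, the smallest that 3 replicates allow. The difference from the TSS class rested on replicate 4, at -2.22 points, and averaged -0.25 points without it. The difference from the intron class ran between 0.61 and 1.15 points with a replicate left out. Composition did not follow peak strength, because the 189 distal peaks with the highest signal averaged 33.6% G+C and the 189 with the lowest averaged 34.2%.

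**Figure D1:**
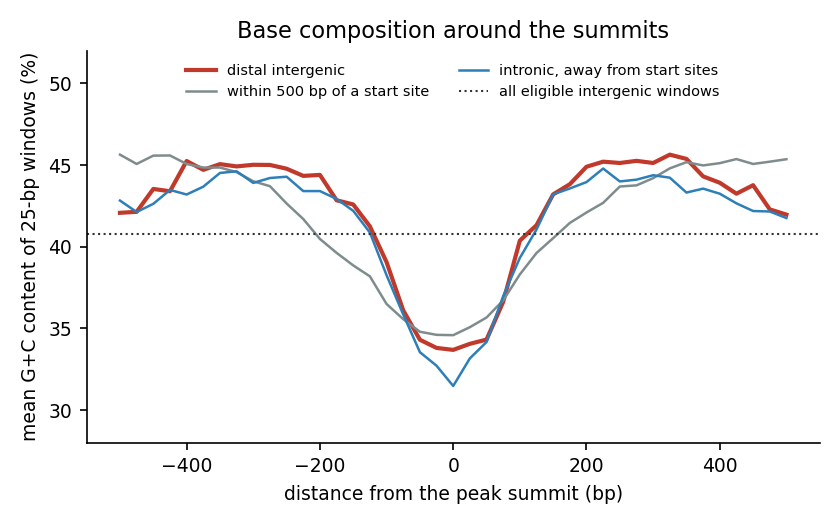
Mean G+C content (%) of 25-bp windows against distance from the peak summit (bp) for distal intergenic peaks (n = 756), peaks within 500 bp of a TSS (n = 3137) and intronic peaks (n = 1808), with the mean of all eligible intergenic windows (40.8%) as a dotted line. All 3 curves dip at the summit.

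Of all words of 8 bases found at the summits of the distal intergenic peaks (22448 words, a word and its reverse complement being counted as 1), the 25 that were most enriched over the flanks consisted of A and T alone. The leading word, AAAAATAT, was present at 62 summits and on average at 15.5 flanks, and it was also present at 6.64% of intronic and 6.92% of TSS peaks. The leading word with at least 4 G or C was CACTGAGA, which ranked 27th. It was present at 26 distal summits and on average at 1.5 flanks, but at 1.33% of intronic and 0.51% of TSS peaks.

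Searched on both strands within 50 bp of the summit, CACTGAGA was found at 3.44% of distal intergenic peaks, against 1.16% of all optimal peaks. Its 7-base core CACTGAG, chosen after this ranking was seen, was present at 39 distal intergenic peaks (5.16%, exact interval 3.69% to 6.99%), against 1.94% of all optimal peaks. It occurred in 0.728% of the flanks of the distal peaks, 0.854% of tiled eligible intergenic windows, 2.05% of intronic peaks and 1.08% of TSS peaks. It was present in 2.78% of the distal regions outside the optimal list, above the tiled windows. In the replicates' own lists, 5.16%, 5.07% and 3.62% of distal regions held the core in replicates 1, 2 and 4, which exceeded the share among TSS regions by 3.57 ± 0.917 percentage points and that among intronic regions by 2.20 ± 0.173 points (SD, n = 3, higher in 3 of 3, exact sign-flip p = 0.25 for each, the smallest possible). The core was chosen at summits that these same libraries gave rise to, so the replicate values are a description and not an independent check. No distal peak with CACTGAG lay on the X chromosome, where 84 of the 756 members lie. The 39 peaks are few, and how often the word occurs in X sequence was not computed, so avoidance of X is not shown.

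The core tended to lie to one side of the summit and in one orientation. Read on the strand that spells CACTGAG, it lay 5′ of the summit in 34 of the 39 distal peaks and 3′ of it in the others. Because a window of 50 bp limits where a copy can be found, the search was repeated with 100 bp to each side, an alternative chosen after the data were seen. The core was then present at 80 distal peaks (10.6%), against 1.72% of windows of the same width in the flanks, and the nearest copy lay 5′ of the summit in 74 of the 80, with a median offset of -46.5 bp. Beyond 50 bp there were 37 peaks with the core on the 5′ side and 1 with it on the 3′ side. In this wider window 7.41% of intronic peaks (134) and 2.77% of TSS peaks (87) held the core, 5′ of the summit in 115 and 61 of them. Within 50 bp of the summit, the 6 bases after the core contained AAA in 31 of 39 copies at distal peaks, 25 of 38 copies at intronic peaks and 14 of 34 copies at TSS peaks. Peaks with the core were not the strongest, with a median pooled signal of 219.9 compared with 235.2 for distal peaks without it. The 4 strongest such peaks whose sequence is given are printed on the strand that reads the core, with the core in capitals, to show its place relative to the summit at position 51.
Peak near lncRNA:CR45303, chr2L:14502743-14502843, minus strand: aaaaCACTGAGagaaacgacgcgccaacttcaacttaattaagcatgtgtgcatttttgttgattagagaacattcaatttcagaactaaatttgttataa
Peak near lncRNA:CR44189, chr2L:19226475-19226575, minus strand: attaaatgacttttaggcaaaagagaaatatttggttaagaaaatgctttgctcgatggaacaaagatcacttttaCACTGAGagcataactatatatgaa
Peak near Gr89a, chr3R:16497569-16497669, plus strand: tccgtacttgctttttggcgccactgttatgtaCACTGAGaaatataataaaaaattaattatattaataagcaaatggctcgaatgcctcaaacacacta
Peak near Doc2, chr3L:9025776-9025876, plus strand: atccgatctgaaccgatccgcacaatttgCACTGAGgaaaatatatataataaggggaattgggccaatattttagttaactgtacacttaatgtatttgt
In the peaks near lncRNA:CR45303, Gr89a and Doc2 the core preceded the summit, and in the peak near lncRNA:CR44189 it followed it. Gr89a encodes a gustatory receptor and Doc2 a T-box transcription factor of the dorsal embryo.

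A G+C-rich word, TGCGGATG, was found at 28 distal intergenic peaks (3.70%, exact interval 2.48% to 5.31%), against 1.81% of all optimal peaks, and at 0.860% of the flanks. No distal peak held both words, which are each too rare for this to show that they avoid each other. The share was 1.27% in introns, 1.05% near a TSS, 0.712% in the distal regions outside the optimal list and 0.305% of tiled windows. The word was not most frequent in intergenic sequence, since 22 of the 161 exonic peaks (13.7%) held it. In the replicates' own distal regions it was present in 3.77%, 3.33% and 2.61% in replicates 1, 2 and 4, above the TSS regions by 2.31 ± 0.533 points and above the intronic regions by 1.90 ± 0.513 points (SD, n = 3, higher in 3 of 3, exact sign-flip p = 0.25 for each). The word was chosen with earlier results of these data known, so these replicate values are not an independent check. At 21 of the 28 distal peaks the window held 2 or more copies, and at most 6. Of 39 distances between neighbouring copies on the same strand, 35 were multiples of 6 bp. Peaks with the word had a G+C content of 54.5% and a median pooled signal of 279.4, compared with 232.6 for distal peaks without it, and 12 of the 28 were among the 189 distal peaks with the highest signal. None overlapped an annotated transposable element. The 4 strongest whose sequence is given are printed on the strand that reads the word, with TGCGGATG in capitals.
Peak near hth, chr3R:10647321-10647421, minus strand: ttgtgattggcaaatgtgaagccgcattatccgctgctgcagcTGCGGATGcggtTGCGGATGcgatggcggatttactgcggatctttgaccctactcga
Peak near RhoL, chr3R:9496879-9496979, minus strand: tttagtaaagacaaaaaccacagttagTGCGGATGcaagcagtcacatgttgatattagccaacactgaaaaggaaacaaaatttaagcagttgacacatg
Peak near tRNA:Asn-GTT-1-10, chr3R:8134738-8134838, minus strand: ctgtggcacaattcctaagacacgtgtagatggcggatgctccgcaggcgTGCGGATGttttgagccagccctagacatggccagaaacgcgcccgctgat
Peak near unnamed RNA gene, chrX:19552694-19552794, minus strand: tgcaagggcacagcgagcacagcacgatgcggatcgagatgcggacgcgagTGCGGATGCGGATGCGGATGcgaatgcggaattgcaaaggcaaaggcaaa
The peak near hth holds 2 copies whose starts are 12 bp apart, the peak near the unnamed RNA gene holds 3 overlapping copies, and the peaks near RhoL and tRNA:Asn-GTT-1-10 hold a lone copy. The summit near CG42680, printed above, has the related run gcggatg repeated without a preceding T.

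The other words searched, most of them recognition words of known fly factors, were each present at 10.7% of distal summits or fewer. TGCATA was present at 9.13% of distal peaks and 5.82% of their flanks, against 8.22% of all optimal peaks. CGATA, the core of the DREF element, was present at 10.7% of distal peaks, against 17.1% of all optimal peaks and 22.9% of TSS peaks, and the full element TATCGATA was present at 0.397%, against 2.34% of all optimal peaks and 4.14% of TSS peaks. DREF is a factor of housekeeping promoters. In the replicates' own lists the distal share of CGATA differed from that of TSS regions by -12.2 ± 1.90 points (lower in 3 of 3, exact sign-flip p = 0.25). GGTCACAC, a core promoter word, was present at 0.265% of distal peaks, against 1.3% of all optimal peaks and 2.14% of TSS peaks.

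GAGAG, bound by GAGA factor, was present at 9.13% of distal peaks and 14.1% of their flanks, against 9.28% of all optimal peaks. CACACACA was present at 0.661% of distal peaks and 4.63% of the flanks, against 1.07% of all optimal peaks. CAGGTAG, bound by the early activator Zelda, was present at 0.794% of distal peaks (6 of 756), against 0.426% of all optimal peaks. The E-box words CACGTG and CAGCTG were present at 0.397% and 1.46% of distal peaks, against 0.887% and 3.84% of all optimal peaks. TGACTCA, the AP-1 word, was present at 0.661%, against 0.768% of all optimal peaks. The 4 variants of the CTCF core counted together (AGATGGC, then AGAGGGC, then AGGTGGC and then AGGGGGC) were present at 3.44%, against 3.51% of all optimal peaks. A match describes the letters in the window and does not show that a factor was bound.

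Distal intergenic peaks were weaker than peaks near a TSS. Their pooled signal, a value of the authors' caller with no stated scale that is used here only to rank peaks within a list, had a median of 233.1 and ran between 151.3 and 2321.5, compared with medians of 295.3 near a TSS and 246.8 in introns. Of the 100 strongest optimal peaks 5 were distal intergenic, and of the top 500 and 1000 they made up 33 and 75. Within each replicate's list of 30000 regions, the median percentile of the distal peaks was 89.1, 88.1 and 88.8 in replicates 1, 2 and 4, taken over the 747, 746 and 742 members with a region over their summit there. That of TSS peaks was 91.8, 92.5 and 92.1, and that of intronic peaks was 89.9, 89.4 and 89.1. The distal peaks differed by -3.52 ± 0.835 percentile points from the TSS peaks and by -0.814 ± 0.458 points from the intronic peaks (SD, n = 3, lower in 3 of 3 replicates for both, exact two-sided sign-flip p = 0.25, the smallest possible). The gap to the introns was small beside the one to the TSS class.

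**Figure D2:**
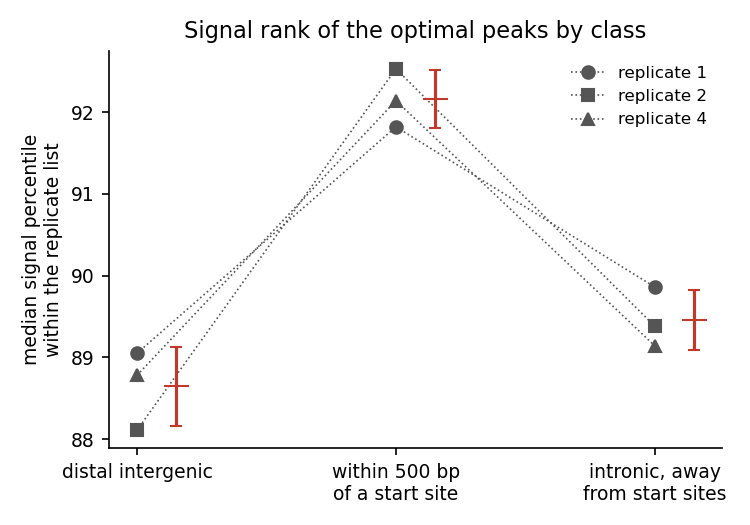
Median signal percentile of the optimal peaks within each replicate's list, by class, with 1 symbol per replicate and dotted lines joining the classes of a replicate. The red marks give the mean and SD of the 3 replicates. The distal intergenic class lies lowest in each replicate, between 88.1 and 89.1.

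Each replicate recovered most of the distal intergenic peaks. With the replicate lists limited to their 5862 strongest regions, 661, 607 and 628 of the 756 were overlapped in replicates 1, 2 and 4, a mean of 83.6% ± 3.60 (SD, n = 3). All 3 replicates overlapped 487 of them (64.4%, exact interval 60.9% to 67.8%), against 73.3% of all optimal peaks, 77.3% of TSS peaks and 70.6% of intronic peaks, and 6 were overlapped in none. These libraries also gave rise to the optimal list, so this overlap is a description and not an independent check. The class made up 13.6%, 12.8% and 11.8% of the restricted lists of replicates 1, 2 and 4 (mean 12.7% ± 0.899). Among the 5249 distal intergenic regions of the pooled list, 756 were kept in the optimal list (14.4%, exact interval 13.5% to 15.4%), against 19.5% of all pooled regions. The share kept was 31.6% near a TSS, 16.0% in introns and 4.55% in exons.

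The strongest distal intergenic peak, on arm 2R at position 13035345, had a signal of 778.8, 465.6 and 1091 in replicates 1, 2 and 4 and ranked 22nd of the optimal list. It lay in the interval between Su(z)2 and CG13323, 11911 bp from the TSS of CG13323 and 27434 bp from the body of Su(z)2, a gene related to Psc. A peak on X at 2124129 lay between ph-d and ph-p, which encode the Polyhomeotic subunits of the Polycomb repressive complex PRC1, 843 bp from ph-d and 2081 bp from ph-p, with a signal of 546.2, 348 and 766.7 in these replicates. Members on 2R at 12958272 and 12959457 lay between CG13321 and Psc, which encodes another subunit of that complex. Their nearest TSS was that of CG13321, and they were 7725 and 6540 bp from the body of Psc. The signal in replicates 1, 2 and 4 was 461.1, 251.3 and 804.6 for the peak at 12958272 and 372.9, 277.9 and 626.6 for the peak at 12959457. All of these peaks were in the restricted list of every replicate.

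The remaining members of the 15 strongest had neighbours of varied function. The peak on 3R at 21520379 lay between the homeobox gene C15 and sp3, 549 bp from the TSS of sp3, with a signal of 686.3, 363.2 and 689.1 in replicates 1, 2 and 4. The peak on 2R at 22802991 lay between blw, which encodes a subunit of ATP synthase, and CycB, which encodes cyclin B, with a signal of 483, 252.6 and 705.6. On 3R the peaks at 16221868 and 16222152 lay in the same interval between lncRNA:CR45641 and lncRNA:CR45643, less than 1 kb apart. Each of these regions was present in the restricted lists of all 3 replicates.

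Of the other members of the 15, several lay upstream of a protein-coding gene. The peak on 3R at 12403140 was 1301 bp upstream of DNAlig3, a DNA ligase, in an interval flanked by Sol1 and the cytochrome P450 gene Cyp9f2. The peak on 2L at 9567512 was 762 bp upstream of jp, which encodes junctophilin, with lncRNA:CR44149 on the other side. The peak on 3R at 14053600 was 3345 bp upstream of foxo, a transcription factor of the insulin pathway, with tRNA:Ser-GCT-2-2 on the other side. The peak on 2L at 12006808 was 1345 bp upstream of the rhodopsin gene Rh5 and shared its interval with Hacd1, and replicate 2 had no region over its summit. The peaks on 2L at 1638778, 14587282 and 2202432 lay between lncRNA:CR44603 and lncRNA:CR45695, between lncRNA:CR44856 and CG42680, and between COX7AL2 and CG31668. These lay downstream of their nearest TSS, at distances of 8385, 952 and 3734 bp.

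Listed developmental transcription factors, gap and pair-rule genes and signalling genes were each nearest to a larger share of the distal intergenic peaks than of all optimal peaks, and Hox and ribosomal protein genes were nearest to none. By the nearest TSS, 32 members (4.23%, exact interval 2.91% to 5.92%) belonged to a list of 90 symbols of other developmental transcription factors, against 1.71% of all optimal peaks and 1.81% of eligible intergenic bases. These 32 peaks were spread over 20 genes. Gap and pair-rule genes were nearest to 8 members (1.06%), against 0.188% of all optimal peaks and 0.404% of eligible bases, so 8 of the 11 optimal peaks assigned to this list were distal intergenic. These 8 members were spread over 5 genes, all of them pair-rule genes, and no gap gene of the list was nearest to a member. Genes of signalling ligands and receptors were nearest to 12 members (1.59%), against 0.529% of all optimal peaks and 0.368% of eligible bases. These 12 members were spread over 6 genes, with 4 each at wg and ths. Hox genes were nearest to 0 members, against 0.205% of all optimal peaks (12 peaks) and 0.0517% of eligible bases. Ribosomal protein genes were nearest to 0 members, against 1.4% of all optimal peaks (82 peaks) and 0.408% of eligible bases. A count of 0 of 756 allows a share of up to 0.487% (exact interval), so neither count of 0 tells the peaks apart from the eligible bases. The exact intervals count peaks near the same gene as independent. The eligible bases include the Y chromosome and megabases with no optimal peak, and the part of that sequence in these shares was not tested. The lists were chosen with earlier results known and no test of enrichment was made.

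**Figure D3:**
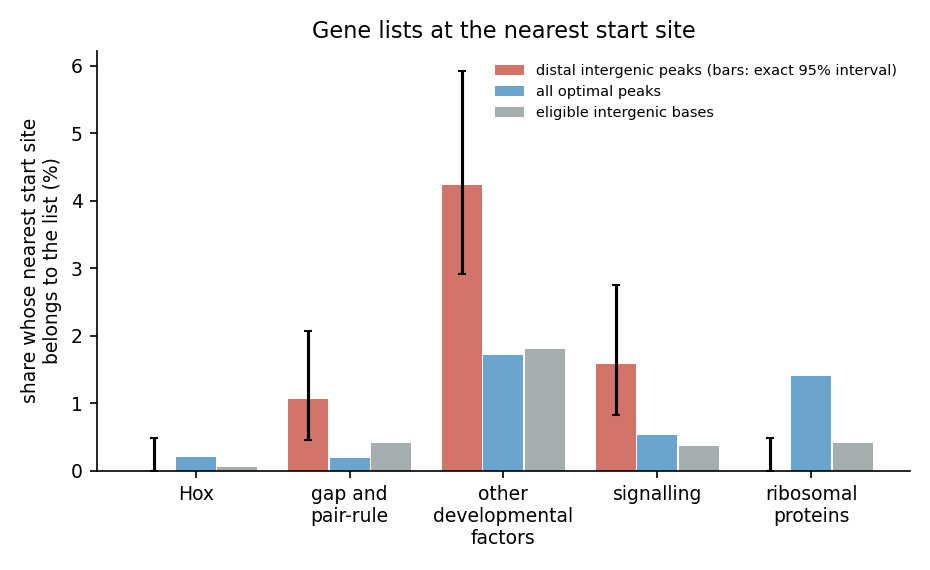
Share (%) of distal intergenic peaks (with exact 95% intervals), of all optimal peaks and of eligible intergenic bases whose nearest TSS belongs to each of 5 gene lists. The intervals count peaks near the same gene as independent. The distal peaks exceed both other shares for gap and pair-rule, other developmental and signalling genes, and are at 0 for Hox and ribosomal protein genes. In the gap and pair-rule list, only pair-rule genes are nearest to a distal peak. For Hox and ribosomal protein genes the share of eligible bases lies within the exact interval. The eligible bases include the Y chromosome and megabases with no optimal peak.

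Among the gap and pair-rule genes, the forkhead gene slp2 had 2 members, the stronger of which lay 4345 bp upstream at 2L 3832495 with a signal of 377.5, 180 and 457 in replicates 1, 2 and 4. Its neighbour slp1 had a member with 126, 76.46 and 312.8. The bHLH repressor gene hry (hairy) had 2 members, the stronger of which lay 3045 bp upstream with 88.92, 95.19 and 117.2. The zinc-finger gene odd had 2 members, the stronger with 54.87, 35.33 and 113.9. In terms of rank, the slp2 peak was at or above the 98.6th percentile in every replicate list, the hry peak was between the 88.8th and the 95.2nd, and the odd peak was between the 82.8th and the 88.3rd.

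Of the other developmental transcription factors, hth, which encodes a homeodomain cofactor of Hox proteins, had 3 members. The strongest lay 7803 bp upstream, with a signal of 399, 193.5 and 414.1 in replicates 1, 2 and 4, and is the first peak printed for TGCGGATG. The forkhead gene bin, needed for visceral mesoderm, had 2 members, the stronger with 182.2, 217.3 and 357.3. The homeobox gene mirr had 1 member, 12283 bp upstream, with 189, 86.54 and 287.8. The POU-domain gene vvl had 5 members, the most of any listed gene, and its strongest lay 33863 bp downstream of the TSS with 146.8, 98.15 and 283.8. The percentiles of the strongest member of these 4 genes were all above 94 in each replicate.

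Among signalling genes, wg, the founding Wnt ligand of the fly, had 4 members, the strongest 11053 bp upstream with a signal of 113.3, 58.85 and 195 in replicates 1, 2 and 4. The neuregulin-like ligand gene vn had 1 member with 111.3, 65.59 and 164, and the FGF ligand gene ths had 4, the strongest with 86.44, 33.18 and 146. The cytokine gene upd2 had 1 member with 76.89, 38.89 and 99.91. These peaks ranked lower than the slp2 and hth peaks in all 3 replicates.

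Many distal intergenic peaks shared an interval. The 6626 intervals that hold eligible sequence included 493 with a member, and 157 of these held 2 or more, which accounted for 420 of the 756 peaks. A further member lay within 5000 bp of 314 members (41.5%, exact interval 38.0% to 45.1%). The same share was higher within other classes, with 50.8% of TSS peaks and 47.8% of intronic peaks near another of their class, and 62.9% of all optimal peaks were near another optimal peak. Some of these neighbours are summits of a shared region, since the regions of 75 members overlap that of another member. Counting only members whose regions do not overlap, 277 (36.6%) had a further member within 5000 bp. On the same basis the share was 37.9% for TSS peaks and 43.4% for intronic peaks, so the TSS class was then close to the distal class. The other classes also hold more peaks, and these shares were not adjusted for class size. The intervals with most members were the one between vvl and lncRNA:CR45115 on 3L, the one between lncRNA:CR44363 and CG7560 on 3L, and the one between CG7320 and lncRNA:CR45935 on 3L, with 7 each. They differed in strength: the 7 members beside CG7560 ran between 151.8 and 739.1 with a median pooled signal of 424.1, and all 7 were found in every restricted replicate list, whereas 4 of 7 were in each of the other intervals, whose median signal was 197.2 and 193.4. The intervals between CG43402 and CG31928 on 2L and between NijA and CG43245 on 3L held 6 members each, of which 2 and 5 were found in every replicate list.

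The arms differed in the density of distal intergenic peaks. Per megabase of eligible intergenic sequence, 3L held 26.99 members, 2L 25.62, 3R 20.47, the small chromosome 4 20.39 (from 5 peaks), X 15.82 and 2R 12.49. The Y chromosome held none, but no pooled distal region was called there either. The replicates' own distal regions gave 25.2, 27.3 and 26.3 per megabase on 3L in replicates 1, 2 and 4, compared with 14.1, 12.5 and 11.3 on 2R, a difference of 13.7 ± 2.20 (SD, n = 3, higher on 3L in 3 of 3, exact sign-flip p = 0.25, the smallest possible, with the arms chosen for their densities). Arm 3L held 32.4% of the distal peaks but 19.8% of TSS peaks and 20.1% of intronic peaks. The low value of 2R rests in part on stretches without any member: 7 of its megabases, with 3.57 of its 7.45 Mb of eligible sequence, held none, and without them 2R had 24 members per megabase. Leaving out such megabases can only raise a density. On the same basis 3L had 43.1, chromosome 4 33.0, 2L 32.6, 3R 25.2 and X 20.9, so 2R stayed below 3L. With the megabases that hold no optimal peak of any class left out on every arm, an alternative chosen after the data were seen, the densities were 34.5 on 3L, 27.5 on 2L, 24.1 on 3R, 20.4 on chromosome 4, 16.9 on 2R and 15.8 on X. The order of 3L above 2R held in each replicate on this basis, with 32.3, 35.0 and 33.7 compared with 18.9, 16.9 and 15.3, but 2R was then no longer the lowest arm. With all sequence counted, the order of 3L relative to 2L did not hold in every replicate, since 2L had 28.9 in replicate 1, above the 25.2 of 3L.

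Part of the density on 3L came from a few places. The megabase chr3L:11000001-12000000, which contains the interval beside CG7560, held 38 members in 259998 eligible bases, with 35, 41 and 39 regions in replicates 1, 2 and 4. The 5 megabases with most members held 139 of the 756 (18.4%), and 4 of these 5 lay on 3L. Over the 141 megabases with eligible sequence the median was 4 members, and 30 had none.

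**Figure D4:**
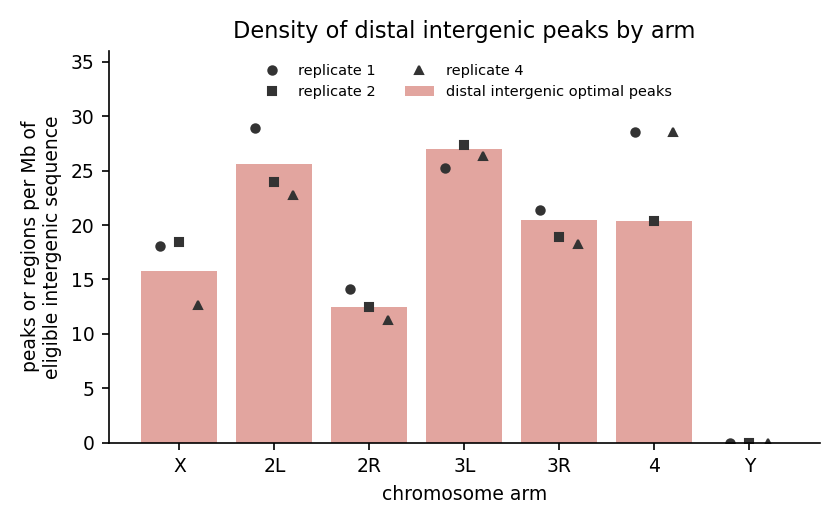
Distal intergenic optimal peaks (bars) and each replicate's own distal intergenic regions (symbols) per Mb of eligible intergenic sequence, by chromosome arm. Bars run between 12.49 on 2R and 26.99 on 3L among the large arms, and all 3 replicates place 2R below 2L, 3L and 3R.

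The density fell with distance from the nearest TSS. The median distance of the distal peaks was 3059.5 bp, between 501 and 39295 bp, compared with 6390 bp for eligible bases. Between 500 and 1000 bp there were 47.15 members per megabase, between 2000 and 5000 bp 26.2, and beyond 20000 bp 2.39. The last value has a denominator that includes the Y chromosome and long stretches with no optimal peak of any class. Without the megabases that hold no such peak it was 5.96 per megabase, compared with 48.8 between 500 and 1000 bp and 27.6 between 2000 and 5000 bp, so the fall remained but was smaller. The replicates gave like shares, with 19.2% ± 1.21 of distal regions between 500 and 1000 bp and 2.91% ± 0.211 beyond 20000 bp (SD, n = 3), compared with 7.40% and 24.7% of eligible bases. The distal regions outside the optimal list had a median distance of 3563 bp. Peaks far from a TSS were also somewhat weaker, with a median signal of 195 beyond 20000 bp (23 peaks) compared with 249.8 between 500 and 1000 bp (136 peaks).

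**Figure D5:**
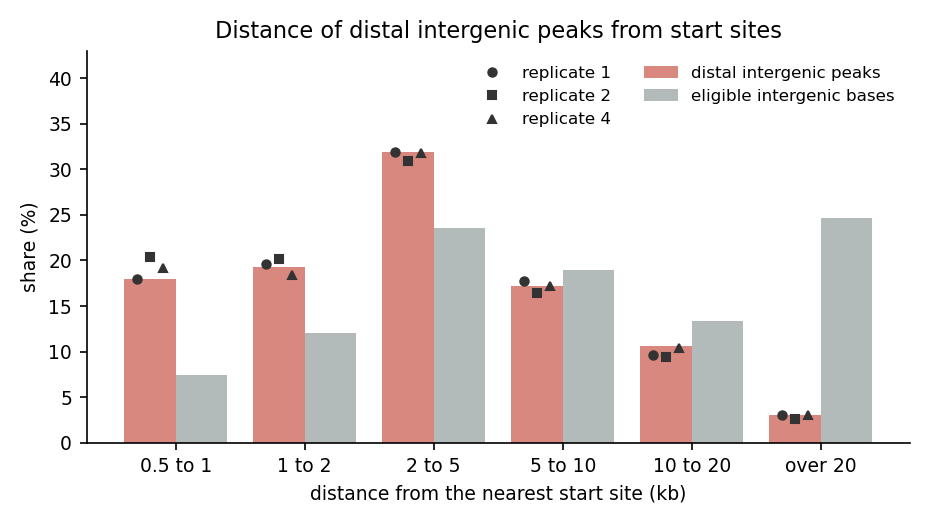
Share (%) of distal intergenic optimal peaks and of eligible intergenic bases by distance from the nearest TSS (kb), with the share in each replicate's own distal regions as symbols. The peaks exceed the bases in the bins up to 5 kb and fall below them from 5 kb on.

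Near the limit of 500 bp, the closest members inside the rule were 501 to 520 bp from a TSS, with signals of 328.2 near lncRNA:CR44682, 246.8 near Xrp1, 169.4 near lncRNA:CR45352, 280.8 near lncRNA:CR44828 and 154.7 near lncRNA:CR43334. The intergenic peaks just outside it were 490 to 496 bp from a TSS, with signals of 329.6 near CG43066, 191.3 near lncRNA:CR45277, 406.8 near CG3348, 1061 near CG17896 and 269.8 near lncRNA:CR44585. The ranges overlap, and the peak near CG17896 was the highest of the 10.

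Of the 756 distal peaks, 468 (61.9%) lay upstream of the nearest TSS and 288 downstream of it, that is, beyond the end of the gene. The share of eligible bases on each side was not computed, so these counts do not show a preference for either side. Intervals between divergent genes held 24.78 members per megabase of eligible sequence, tandem ones 19.91 and convergent ones 17.02. The nearest gene was protein-coding for 501 members (66.3%, compared with 65.0% of eligible bases), a non-coding RNA gene for 238 (31.5%, compared with 26.4%) and a tRNA gene for 14 (1.85%, compared with 0.844%). A pseudogene was nearest to 2 members (0.265%, compared with 7.10% of eligible bases). The shares of protein-coding genes were close to each other, whereas tRNA genes took a larger and pseudogenes a smaller share of the peaks than of the bases, both from small counts. The eligible bases include the Y chromosome (6.44% of them), where no pooled distal region was called, and megabases with no optimal peak. The part of that sequence in the pseudogene share was not tested.

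Few distal intergenic peaks lay in transposable elements. Of the 756 distal peaks, 16 had any base in an annotated element (2.12%, exact interval 1.21% to 3.41%), against 1.07% of all optimal peaks, and 6 had their summit in one (0.794%), compared with 10.5% of eligible intergenic bases. The distal regions outside the optimal list had 0.801% of their summits in an element, a similar share. Among the other optimal peaks it was 0.287% near a TSS and 0.221% in introns. The low share was thus found in called distal regions with or without a place in the optimal list. How reads that match several copies were treated is not given in the sources used here, and its part in this share was not tested. The eligible bases also include the Y chromosome and megabases with no optimal peak, and the part of that sequence in the 10.5% was not tested.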

How the data were processed

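The libraries were 3 biological replicates of 1 group, precipitated after sonication to fragments of 200 to 800 bp, per the labels. The authors deposited, for the dm6 assembly, a relaxed list of 30000 regions per replicate and for the pooled libraries, and an optimal list after an irreproducible discovery rate threshold, per the file headers. Column 7 of each list holds the signal that the authors' caller assigned to the region, without a stated scale. Lists were called separately, so signal was ranked only within a list. The caller, its version and the read depth are not given in the sources used here, and the dm3 lists were not used.

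Summits were placed on the Ensembl release 115 annotation of BDGP6 without transposable elements (18277 genes, 23694 distinct TSS) and classified by position. Eligible intergenic bases are those in no gene and more than 500 bp from any TSS (38972211 bp, 28.3% of the arms). Replicate lists were restricted to their 5862 regions of highest signal for overlaps (1 bp or more), densities and shares, and used whole for percentiles. Both strands were searched for each word, at the summit ± 50 bp and in windows of the same length centred 300 bp to each side. Shares have exact Clopper-Pearson intervals at 95%, and differences over replicates an exact two-sided sign-flip permutation test. The p-values of the 33 such tests were not adjusted, since none can be below 0.25.

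The members, gene lists, words and tests were chosen with earlier results of these data known, among them those for TGCGGATG, and CACTGAG was added after the ranking of words was seen. Genes were named if they flank or are nearest to the 15 members of highest signal, flank the 5 intervals with most members, are among the 4 listed genes per list with the highest member signal, or are nearest to the 5 peaks on each side of the 500 bp limit or to a peak whose sequence is shown. The listed symbols h, otd and Dl were matched to hry, oc and Delta through RefSeq's synonyms. Sequences of peaks on 1 chromosome arm are not shown. Alternatives covered the distance limit, the gene set, list size, overlap rule, word window and each replicate left out, and, chosen after the data were seen, megabases without an optimal peak and members whose regions overlap. The procedures were tested on simulated data. Calculations used Python 3.11.15, numpy 2.4.6 and scipy 1.17.1.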

Additional observations from a re-analysis of the deposited data

How the results depend on the processing

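No paired analysis was possible because the series holds only 1 group. The share of optimal peaks that were distal intergenic (12.9%) was 17.2% with a limit of 250 bp from a TSS, 10.6% with 1000 bp, 8.09% with 2000 bp, 16.0% when only protein-coding genes counted and 10.4% in the 2931 strongest peaks. Over replicates (12.7%) it was 10.5% with 2931 regions per list. The share of members found in every replicate (64.4%) was 59.3% when at least 50% of the peak had to be overlapped, 57.1% when a replicate summit had to lie within 100 bp, and between 69.1% and 73.5% with a replicate left out. Leaving a replicate out requires overlap in fewer lists, so by construction this share can then only stay or rise. The share of pooled distal regions in the optimal list (14.4%) was 5.79% for the 2931 strongest, by construction. Both percentile differences kept their sign under every alternative run: the difference from TSS peaks ran between -3.89 and -3.07 with a replicate left out, and that from intronic peaks between -1.04 and -0.585. With each list's own regions ranked by their own summits they were -2.77 and -0.491. The share in transposable elements (2.12%) was 0.794% for the summit alone, and the share with a further member nearby (41.5%) was 17.2% within 1000 bp and 56.8% within 10000 bp, and 36.6% when members whose regions overlap were not counted as neighbours.

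Word shares moved with the window. A wider window contains the narrower one, so by construction a word share can only stay or rise as the window widens. With 25 and 100 bp to each side of the summit, the shares were 3.70% and 20.9% for GAGAG, 5.29% and 20.1% for CGATA, 4.37% and 17.7% for TGCATA, 1.98% and 7.28% for the CTCF core, 1.98% and 10.6% for CACTGAG, and 1.19% and 8.20% for CACTGAGA. With 100 bp they were 1.85% for TGACTCA, 1.85% for CACGTG, 4.76% for CAGCTG and 1.98% for CACACACA. The share with TGCGGATG stayed within its interval in both windows. Read depth is unknown, so counting intervals cover the number of peaks only.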
